A study of Mus musculus with 8 samples.

Results

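Ly6c2-high monocytes are described here in mouse MC38 tumors 24 hours after dosing. They were the cells that passed limits on 13 genes, namely at least 3 UMIs of *Ly6c2*, at least 1 of *Plac8* and at least 5 of *Lyz2*, at most 2 of *C1qa*, *C1qb* and *C1qc* together, none of *Cd3d*, *Cd3e*, *Cd3g*, *Ncr1*, *Klre1* or *Klrb1c*, and at most 2 of *Ccr7*. A UMI (unique molecular identifier) counts each captured transcript once. These limits kept 612 of 9886 cells (6.19%), called gated monocytes below. They were compared with 2810 C1q-positive macrophages of the same tumors, which had at least 10 UMIs of the 3 C1q genes and passed the same limits on *Lyz2*, *Ccr7*, T cell and NK cell genes. Because cells were chosen by the levels of these genes, gated and macrophage levels are set side by side without a test.

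MC38 is a mouse colon carcinoma line, and tumors of it were grown under the skin of female C57BL/6J mice aged 8 weeks. Each mouse was injected once with saline (3 tumors), with free R848 (3 tumors) or with medium R848-BPD (2 tumors). R848, or resiquimod, activates the endosomal toll-like receptors TLR7 and TLR8, and an R848-BPD is a bottlebrush polymer to which R848 is bound as a prodrug, "medium" naming the linker of intermediate release rate. Tumor cells were separated by the leukocyte marker CD45 and loaded onto Seq-Well arrays with CD45+ cells in excess, so all percentages of cells describe the loaded mixture. Nothing in the labels ties a tumor to a sequencing run, so a run and a treatment cannot be told apart, and p-values rest on the spread between these 8 tumors.

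Classical monocytes leave the bone marrow through the chemokine receptor CCR2, carry the surface protein Ly6C, and enter inflamed tissue and tumors. There they lose Ly6C as they mature, and many become macrophages that make C1q, or cells that present antigen. In tumors, freshly entered monocytes are one source of both inflammatory and suppressive myeloid cells.

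The promoters of 3 genes that rose in these cells are shown because their letters hold a motif of a transcription factor family known in myeloid cells. They are the 250 bases before the start site in RefSeq (GRCm38.p6), printed in the direction of transcription, and the capitals mark the motif. *Saa3* and *Mmp8* hold the letters TTGCNNAA, bound by C/EBP factors (in *Saa3* on the opposite strand), and *Gclm* holds TGACNNNGC, the core of the antioxidant response element, on the opposite strand. *Saa3* lies at chr7:46715677-46715926 (minus strand), *Mmp8* at chr9:7558179-7558428 (plus) and *Gclm* at chr3:122245307-122245556 (plus).
Saa3: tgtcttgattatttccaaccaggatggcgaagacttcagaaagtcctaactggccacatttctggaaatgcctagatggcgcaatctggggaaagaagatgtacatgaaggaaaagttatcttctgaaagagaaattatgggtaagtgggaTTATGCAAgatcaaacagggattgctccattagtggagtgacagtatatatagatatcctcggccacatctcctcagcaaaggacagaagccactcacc
Mmp8: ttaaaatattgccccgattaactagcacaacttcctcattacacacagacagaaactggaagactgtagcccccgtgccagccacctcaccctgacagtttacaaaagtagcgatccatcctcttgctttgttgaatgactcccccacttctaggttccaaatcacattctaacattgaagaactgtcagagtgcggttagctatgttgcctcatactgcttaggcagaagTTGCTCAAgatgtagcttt
Gclm: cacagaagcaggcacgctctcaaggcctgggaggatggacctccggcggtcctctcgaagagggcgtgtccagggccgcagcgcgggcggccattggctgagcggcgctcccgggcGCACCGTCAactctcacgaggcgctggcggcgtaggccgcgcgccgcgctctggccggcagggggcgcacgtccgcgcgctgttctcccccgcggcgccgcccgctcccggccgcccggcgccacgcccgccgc

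Searched on both strands, TTGCNNAA occurred in 9.56% of the 32851 promoters of this length and in 9.38% of 4755 promoters of genes tested in gated monocytes. Of genes with a promoter in the table, it was held by 14.9% of the 94 higher and 8.97% of the 78 lower after medium R848-BPD than after saline (comparison below), and by 12% of the 50 higher and 13.6% of the 22 lower than after free R848. TGACNNNGC occurred in 10.2% of all promoters, and in 14.2% of those of genes tested. In the same order the shares were 15.96% and 20.5% against saline and 10% and 27.3% against free R848. A match describes letters and not a bound site, and these shares were not tested.

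The sequenced libraries held 5867590 to 12422614 UMIs. Of 10791 barcodes, 11 occurred in at least 2 libraries, which put 56 cells under a shared barcode, and none of these was a gated monocyte. Scrublet marked 100 cells (1.01%) as doublets, of which 2 were gated monocytes, and all were kept. Gated monocytes had a median of 4269 UMIs per cell, against 6267 in the macrophages, and their summed counts ranged from 80472 to 881455 UMIs per tumor. The smallest sums came from medium R848-BPD replicate 2 (17 cells), medium R848-BPD replicate 1 (30 cells) and saline replicate 2 (31 cells).

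The label was first checked against markers that the gate did not use. At least 1 UMI of *Vcan* or *Chi3l3*, the other markers of the label, was present in 41.2% to 78.9% of gated monocytes per tumor, against 6.98% to 20.7% of macrophages. With *Ccr2*, *F13a1* and *Hp* added, 90.1% to 98.9% of gated monocytes and 44.6% to 81.0% of macrophages held at least 1 UMI. Macrophages were the more deeply sequenced cells. In CPM, the usual scaling of a gene's UMIs by the total of all genes, *Chi3l3*, a chitinase-like protein also called Ym1, ranged from 286 to 1050 CPM in gated monocytes and from 12.6 to 68.1 CPM in macrophages, with no overlap.

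*Vcan*, which encodes the matrix proteoglycan versican, separated the 2 classes less evenly. It was higher in gated monocytes in 7 of 8 tumors, with a log2 ratio between −0.20 and 4.23 (CPM + 10), and the tumor in which it was not higher was medium R848-BPD replicate 1. There it was at 22.8 CPM in gated monocytes and 27.6 CPM in macrophages, and in medium R848-BPD replicate 2 at 62.1 and 58.7 CPM. *Ly6c2* and *Plac8* mark the gated cells because the gate requires them. Of the label markers outside the gate, *Chi3l3* separated the classes in the medium R848-BPD tumors and *Vcan* did not. *Chi3l3* was there at 724 and 286 CPM in gated monocytes and at 13.8 and 26.9 CPM in macrophages.

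At the limits of the gate, the 58 cells with exactly 3 *Ly6c2* UMIs held 1965 CPM of *Plac8*, 258 CPM of *Vcan* and 397 CPM of *Chi3l3*. The 65 cells that failed only because they had 2 *Ly6c2* UMIs held 1904, 462 and 264 CPM of the same genes. The 24 cells with 2 C1q UMIs held 530 CPM of *Chi3l3* and the 20 with 3 held 268 CPM. For *Plac8*, 27 cells with 1 UMI were inside and 21 with none were outside. They held 9266 and 5026 CPM of the macrophage gene *Apoe*, against 3531 CPM in all gated monocytes and 11085 CPM in macrophages. Cells on either side of the *Ly6c2* limit, all with at least 1 *Plac8* UMI, thus had similar *Plac8*. *Vcan* was the higher outside it, and so was *Hp* (767 against 172 CPM).

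Of 3645 genes whose mean log2 CPM reached 6 in either class, 358 were higher and 485 lower in gated monocytes than in macrophages in all 8 tumors. The genes with the largest excess were *Chi3l3* (mean log2 ratio 4.15), *Hp*, which encodes the haemoglobin-binding acute-phase protein haptoglobin (3.47), and *Slpi*, a secreted inhibitor of leukocyte proteases (3.06). *Ifitm6* (2.79), the coagulation factor X gene *F10* (2.48), *1810033B17Rik* (2.37), the decoy interleukin-1 receptor *Il1r2* (2.24), the histidine decarboxylase *Hdc* (2.21) and *Gpr141* (2.15) were also among the highest 10. *Ccr2* was higher by 0.92 and the coagulation factor XIII gene *F13a1* by 1.29, each in 8 of 8 tumors. *Ccr2* and *Hp* are known from circulating leukocytes.

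The genes furthest below their macrophage level were *Fcrls* (−3.61), the chemokine *Ccl8* (−3.15), the tetraspanin *Cd81* (−2.98), the elastase *Mmp12* (−2.72), the adaptor *Blnk* (−2.64), *Ch25h* (−2.59), the prostaglandin D synthase *Hpgds* (−2.42), the folate receptor *Folr2* (−2.40), *Gatm* (−2.38) and *Timp2* (−2.36). *Apoe*, an abundant lipid carrier of macrophages, was lower by 1.51 and the mannose receptor *Mrc1* by 2.12, in 8 of 8 tumors. *Csf1r*, the receptor for the growth factor of both classes, had a mean ratio of −0.02 and was higher in gated monocytes in 5 tumors and lower in 3. The genes of the gate itself differed as the limits require, *Ly6c2* by 2.91, *Plac8* by 2.72 and *C1qa* by −7.48.

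**Figure D1:**
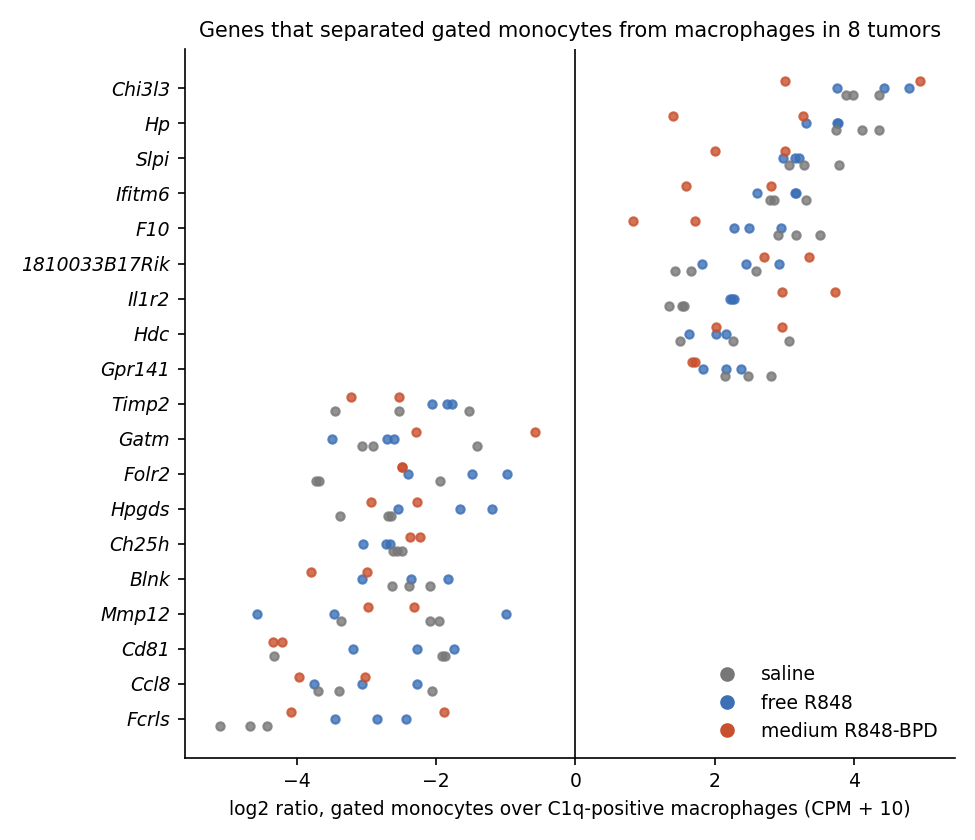
Each point is 1 tumor and gives the log2 ratio of the level in summed gated monocytes to that in summed C1q-positive macrophages (CPM + 10) for 9 of the 10 genes with the largest mean excess and the 10 with the largest mean deficit among genes on the same side of 0 in all 8 tumors. Colors give the treatment. *Chi3l3* lay between 3.004 and 4.946 in every tumor, and the points of *Fcrls* all lie below 0.

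Lists of markers of other cells were read in the gated sums. Of 14 T cell genes none was expressed highly enough to be tested, their summed level was 0 to 47.7 CPM, and *Cd3d*, *Cd3e*, *Cd3g* (set to 0 by the gate) and *Trbc1* were at 0. The NK cell list summed to 45.6 to 93.8 CPM, the B cell list to 17.1 to 53.6 CPM with *Cd79a* and *Pax5* at 0, the fibroblast list to 0 to 202 CPM, and the MC38 list to 33.0 to 654 CPM with *Krt8*, *Krt18* and *Epcam* at 0. No tested gene of these lists, or of the lists for mature and type 1 conventional dendritic cells, was called in any comparison of treatments.

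The neutrophil list (16 genes) was different. It summed to 701 to 1681 CPM after saline, 1222 to 1903 after free R848 and 3710 to 4088 after medium R848-BPD, against 218 to 704 CPM in macrophages. Gated cells with a UMI of *Cxcr2* or *Retnlg*, or at least 3 UMIs of *S100a8* and *S100a9*, made up 1.11%, 0% and 1.82% of gated monocytes in the saline tumors and 4.30%, 4.29% and 7.41% in the free R848 tumors. In the medium R848-BPD tumors they were 6 of 30 (20%) and 3 of 17 (17.6%). These cells are called neutrophil-gene cells below, and the adjusted p without them is given beside calls that they ended.

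The mean share of gated monocytes was lowest in the medium R848-BPD group, although 1 saline tumor lay between its 2 tumors. After saline, 180 of 1373 cells (13.1%), 31 of 1443 (2.15%) and 110 of 1263 (8.71%) were gated monocytes, a mean of 7.99% ± 5.52 (SD, n = 3). After free R848 they were 93 of 1019 (9.13%), 70 of 1313 (5.33%) and 81 of 892 (9.08%), a mean of 7.85% ± 2.18 (SD, n = 3). After medium R848-BPD they were 30 of 1361 (2.20%) and 17 of 1222 (1.39%), a mean of 1.80% ± 0.575 (SD, n = 2). Exact 95% binomial intervals, which cover counting error only, were 1.49% to 3.13% and 0.812% to 2.22% in the medium R848-BPD tumors and 1.46% to 3.04% in saline replicate 2.

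Both medium R848-BPD tumors lay below all 3 free R848 tumors, a difference of the means of −6.05 percentage points (two-sided exact permutation p = 0.2). Their difference from saline was −6.19 percentage points (exact permutation p = 0.3), and here the groups overlapped, because saline replicate 2 held 2.15%. Without that tumor the difference was −9.11 percentage points and the groups did not overlap, and without saline replicate 1 it was −3.63 percentage points and they overlapped. Free R848 and saline differed by −0.143 percentage points (exact permutation p = 1). With 2 against 3 tumors the smallest p these tests can give is 0.1.

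Since the gate rests on 3 *Ly6c2* UMIs, a smaller number of these cells and less *Ly6c2* RNA per cell cannot be told apart from the share. Within the gate, *Ly6c2* was at 3146, 1777 and 3366 CPM after saline, 3819, 3509 and 3462 CPM after free R848 and 1989 and 1939 CPM after medium R848-BPD. These values are a description, since the limit removes cells with low counts. With each cell thinned to 2000 UMIs and shallower cells left out, the shares averaged 5.48%, 6.34% and 0.780% for saline, free R848 and medium R848-BPD. Then medium R848-BPD lay below saline in both tumors without overlap (−4.70 percentage points, exact permutation p = 0.2) and below free R848 (−5.56 percentage points, exact permutation p = 0.1). With no limit on *Ly6c2* the differences were −10.0 and −7.02 percentage points. As a share of *Lyz2*-positive myeloid cells, gated monocytes averaged 17.1%, 19.4% and 5.98%.

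**Figure D2:**
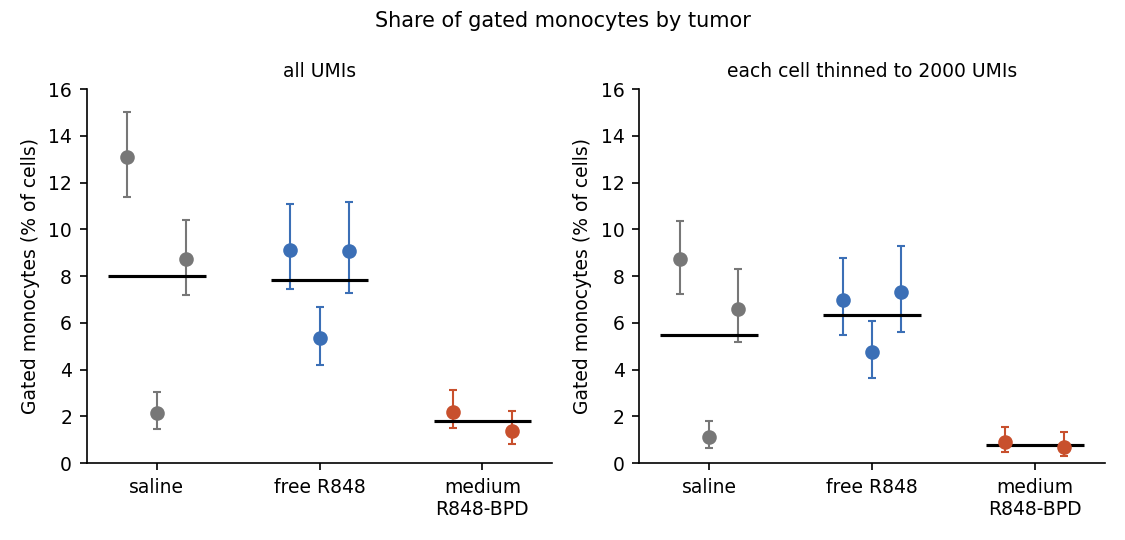
Each point is 1 tumor, its bar the exact 95% binomial interval and the horizontal line the group mean. The left panel gives gated monocytes as a percentage of all cells kept and the right panel the same after thinning each cell to 2000 UMIs. Both medium R848-BPD tumors lie below the free R848 tumors in both panels, and saline replicate 2 (2.15% at full depth) lies apart from the other saline tumors.

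For expression, UMIs were summed over the gated monocytes of each tumor and 6131 genes outside the gate were tested with edgeR. CPM values below use the library sizes scaled by edgeR, so they differ slightly from the unscaled ones above. Free R848 against saline called 3 genes (0.0489% of those tested), all higher. Medium R848-BPD against saline called 231 genes (3.77%), 121 higher (1.97%) and 110 lower (1.79%). Medium R848-BPD against free R848 called 95 genes (1.55%), 63 higher (1.03%) and 32 lower (0.522%). The comparisons with saline share the saline tumors, and both with medium R848-BPD share its 2 tumors, so they are given side by side. The median log2 fold change over all genes was −0.01, −0.06 and −0.04.

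The 2 medium R848-BPD tumors carried much of these counts. Without replicate 1 the calls were 47 against saline and 15 against free R848, and without replicate 2 they were 71 and 29. Without saline replicate 1 there were 109 calls against saline, and without free R848 replicate 1 there were 52 against free R848. For free R848 against saline there were 1 to 11 calls, the highest number without saline replicate 2. *Saa3*, *Lcn2*, *Mmp8*, *Fpr1*, *Cd38* and *S100a4* were called in both comparisons with medium R848-BPD whichever of the 8 tumors was left out. Of all called genes, 29 of 231 against saline and 9 of 95 against free R848 were called in all 8 of these fits.

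After medium R848-BPD, gated monocytes were rich in transcripts of acute-phase and granule proteins. *Saa3*, which encodes an acute-phase serum amyloid A protein made by macrophages and other tissue cells, was at 16.9, 0 and 0 CPM in the saline tumors, 368, 264 and 193 CPM in the free R848 tumors and 31569 and 13252 CPM in the medium R848-BPD tumors. The 3 groups did not overlap. It rose after free R848 by 4.79 ± 0.57 (log2 fold change ± SE, edgeR adjusted p = 0.00207) and further after medium R848-BPD (11.13 ± 0.61 against saline, adjusted p = 2.05e-08, and 6.33 ± 0.45 against free R848, adjusted p = 5.74e-07). Of the medium R848-BPD tumors, replicate 1 held over 2 times the level of replicate 2.

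*Lcn2* encodes lipocalin 2, which binds bacterial iron carriers and is stored in neutrophil granules. It was at 0, 0 and 6.02 CPM after saline, 47.1, 46.7 and 47.5 CPM after free R848 and 2143 and 1058 CPM after medium R848-BPD. Only 2 UMIs were counted after saline, so the ratios of summed counts are wide, 33.5 (95% counting interval 8.91 to 283) for free R848 and 1239 (341 to 10263) for medium R848-BPD. Against free R848 its log2 fold change was 5.10 ± 0.35 (adjusted p = 5.44e-07). The free R848 call (adjusted p = 0.0171) ended without neutrophil-gene cells (adjusted p = 0.0803) and without free R848 replicate 2 or saline replicate 1 (adjusted p = 0.0684 and 0.333), and the medium R848-BPD calls did not.

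*Mmp8*, the neutrophil collagenase, was at 44.7, 27.8 and 30.1 CPM after saline, 41.1, 38.4 and 27.9 CPM after free R848 and 753 and 1058 CPM after medium R848-BPD. It rose by 4.58 ± 0.29 against saline (adjusted p = 8.2e-08) and 4.60 ± 0.28 against free R848 (adjusted p = 1.7e-07), while the saline and free R848 tumors overlapped. *Fpr1*, a receptor for bacterial formyl peptides, was at 4.84 to 18.1 CPM after saline, 12.2 to 39.1 CPM after free R848 and 289 and 290 CPM after medium R848-BPD, and rose by 4.77 ± 0.49 and 3.66 ± 0.43 (adjusted p = 3.97e-05 and 0.00025).

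Its relative *Fpr2* went from 33.3 to 72.2 CPM after saline and 57.7 to 156 CPM after free R848 to 415 and 302 CPM after medium R848-BPD (2.70 ± 0.38 and 1.83 ± 0.35, adjusted p = 0.000668 and 0.0143). With medium R848-BPD replicate 1 left out its adjusted p were 0.0789 and 0.368, and the second was 0.0611 without replicate 2 and 0.0599 without free R848 replicate 1. *Hp* was higher in both comparisons (1.51 ± 0.34 and 1.48 ± 0.34, adjusted p = 0.021 and 0.0345), but the call ended without neutrophil-gene cells (adjusted p = 0.114 and 0.162) and without medium R848-BPD replicate 1 (0.586 and 0.662) or saline replicate 1 (0.0728 and 0.0529). The second also ended without free R848 replicate 2 or 3 (0.113 and 0.0819). In all, 6 of 10 tested genes of the acute-phase and granule list rose in each comparison with medium R848-BPD and none fell, with list medians of 2.11 and 1.69. After free R848 2 of the 10 rose, with a median of 0.32.

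How these levels were spread over cells was read after thinning each cell to 1000 UMIs. A *Saa3* UMI was then present in 76.7% and 76.5% of gated monocytes of the medium R848-BPD tumors, in 23.7%, 15.7% and 13.6% of those of the free R848 tumors, and in 1.11%, 0% and 0% after saline. In the same medium R848-BPD tumors 64.99% and 72.4% of macrophages had a *Saa3* UMI. Lymphoid cells, which should lack the gene, held one in 7.21% and 15.7%, read here as background. *Saa3* took a median of 1.72% and 0.324% of all UMIs of a gated cell in the 2 medium R848-BPD tumors, and over 1% in 17 of 30 and 4 of 17 cells. In no gated cell of the other tumors did it exceed 0.686%. Leaving out neutrophil-gene cells changed the summed *Saa3* level of the medium R848-BPD tumors from 29886 to 30705 CPM and from 13073 to 12706 CPM of unscaled library size. *Lcn2* went from 2029 to 1777 CPM and from 1044 to 487 CPM, and *Mmp8* from 712 to 474 CPM and from 1044 to 688 CPM, so both were lower without these cells in each tumor.

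*Cd38*, an enzyme that consumes NAD, was at 3.63, 22.2 and 6.02 CPM after saline, 18.2, 5.49 and 19.6 CPM after free R848, and 518 and 554 CPM after medium R848-BPD. The saline and free R848 tumors overlapped, and both medium R848-BPD tumors lay above all of them. Its log2 fold change was 6.17 ± 0.46 against saline (edgeR adjusted p = 8.03e-07) and 5.12 ± 0.40 against free R848 (adjusted p = 1.59e-06). At 1000 UMIs per cell, 30.0% and 23.5% of gated monocytes of the medium R848-BPD tumors had a *Cd38* UMI, against 0% to 1.23% elsewhere. In MC38 cells, which should lack the gene, the shares were 0% to 1.6%.

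Cells with both a *Saa3* and a *Cd38* UMI at that depth were 9 of 30 (30.0%) and 2 of 17 (11.8%) gated monocytes after medium R848-BPD. None was seen after saline or free R848. Counts of 0 allow shares of cells with both UMIs at this depth, not of cells expressing both genes, up to 1.67%, 9.68% and 2.73% in the saline tumors and 3.23%, 4.29% and 3.70% in the free R848 tumors. The difference of the means was 20.9 percentage points against either group (exact permutation p = 0.1, the smallest the design allows). Without thinning, 70.0% and 64.7% of gated monocytes of the medium R848-BPD tumors held both, and 0% to 2.15% elsewhere.

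*Cd38* belonged to a list of antioxidant and NAD genes, of which 9 of 25 tested rose after medium R848-BPD against saline and 6 of 25 against free R848. None fell, and the list median was 0.77 in both. *Bst1*, a relative of *Cd38*, was at 56.8 to 105 CPM after saline, 137 to 227 CPM after free R848 and 554 and 441 CPM after medium R848-BPD (2.88 ± 0.31 against saline, adjusted p = 5.86e-05, called whichever tumor was left out). *Gclm*, a subunit of the rate-limiting enzyme of glutathione synthesis whose promoter is shown above, was at 27.1 to 33.3 CPM after saline, 38.0 to 41.9 CPM after free R848 and 217 and 139 CPM after medium R848-BPD. It rose by 2.62 ± 0.34 and 2.23 ± 0.32 (adjusted p = 0.000304 and 0.00161), but not past the threshold without medium R848-BPD replicate 1 (0.0789 and 0.227).

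The cystine carrier *Slc7a11* rose against free R848 by 2.26 ± 0.50 (adjusted p = 0.0319), from 33.0 to 101 CPM to 295 and 416 CPM, and lost the call without either medium R848-BPD tumor (adjusted p = 0.239 and 0.285) and without free R848 replicate 1 or 2 (0.0841 and 0.0826). Mitochondrial superoxide dismutase, *Sod2*, rose by 2.34 ± 0.36 against free R848 (adjusted p = 0.00272, and 0.227 without medium R848-BPD replicate 1). The heme oxygenase *Hmox1* rose by 2.28 ± 0.50 against saline (adjusted p = 0.0158, 0.495 without that tumor and 0.0764 without saline replicate 1). The other called members were *Prdx1*, *Prdx6* and *Cyba* against saline and *Srxn1* against free R848. Without either medium R848-BPD tumor none of the 4 was called (adjusted p between 0.101 and 0.35), and all but *Prdx1* also lost the call without saline replicate 1 or, for *Srxn1*, free R848 replicate 1 or 2 (between 0.0611 and 0.117). *Cyba* lost it as well without saline replicate 2 or free R848 replicate 1 or 2 (between 0.0513 and 0.0603), and *Srxn1* without neutrophil-gene cells (0.122).

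**Figure D3:**
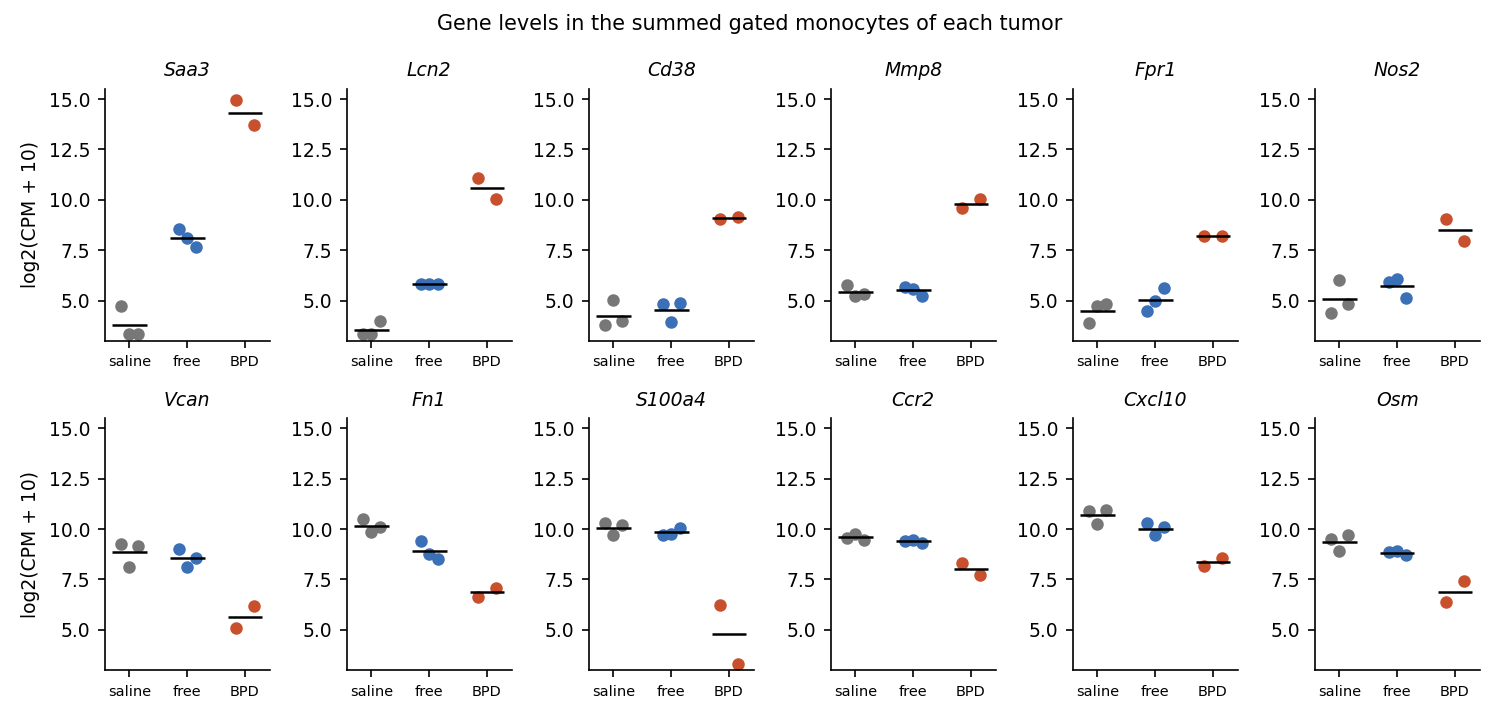
Each point is 1 tumor and gives log2(CPM + 10) in its summed gated monocytes, with the group mean as a line, for 6 genes that rose and 6 that fell after medium R848-BPD. *Saa3*, *Lcn2*, *Cd38*, *Mmp8*, *Fpr1* and *Nos2* of the medium R848-BPD tumors lie above both other groups, and *Vcan*, *Fn1*, *S100a4*, *Ccr2*, *Cxcl10* and *Osm* below them.

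*Nos2*, the inducible nitric oxide synthase of inflammatory myeloid cells, was the only 1 of the 19 interferon-gamma response genes tested that rose after medium R848-BPD, while *Cxcl10* of the same list fell in both comparisons (below) and the list median was −0.57 against saline and −0.83 against free R848. It was at 10.9, 55.5 and 18.1 CPM after saline, 51.7, 57.7 and 25.1 CPM after free R848 and 518 and 239 CPM after medium R848-BPD. The saline and free R848 tumors overlapped, and both medium R848-BPD tumors lay above them. Its log2 fold change was 4.24 ± 0.50 against saline and 3.11 ± 0.44 against free R848 (edgeR adjusted p = 0.000125 and 0.00149). The second adjusted p was 0.227 without medium R848-BPD replicate 1.

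The S100 genes, which encode small calcium-binding proteins, moved in both directions. *S100a8* and *S100a9*, the subunits of calprotectin in neutrophils and monocytes, rose against saline by 5.43 ± 0.47 and 4.87 ± 0.52 (adjusted p = 4.85e-06 and 5.42e-05). *S100a8* was at 20.6, 0 and 48.2 CPM after saline, 86.7, 146 and 210 CPM after free R848 and 1102 and 1083 CPM after medium R848-BPD. The neutrophil-gene cells were partly chosen by these genes, so leaving them out lowers these genes by construction, and a call lost that way cannot show which cells held the rise. Without those cells *S100a8* still passed against saline (adjusted p = 0.0479) but not against free R848 (0.295). *S100a9* was then too low to be tested, and *Cxcr2* was set to 0 by the choice.

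*S100a4*, a gene of motile leukocytes, went the other way. It was at 1243, 816 and 1168 CPM after saline, 832, 868 and 1042 CPM after free R848 and 66.2 and 0 CPM after medium R848-BPD. It fell by 4.64 on the log2 scale against saline (SE 0.48, adjusted p = 3.97e-05) and by 4.40 against free R848 (SE 0.48, adjusted p = 0.000113). *S100a6* fell by 1.48 against free R848 (SE 0.27, adjusted p = 0.00925), a call that ended without either medium R848-BPD tumor (adjusted p = 0.187 and 0.16). Of 7 tested S100 genes, 2 rose and 3 fell against saline, and 2 rose and 2 fell against free R848. The LIM-domain gene *Crip1*, at 344 to 543 CPM after saline, 339 to 383 CPM after free R848 and 60.2 and 50.4 CPM after medium R848-BPD, fell by 2.64 against free R848 (SE 0.36, adjusted p = 0.00103, and 0.0774 without medium R848-BPD replicate 1).

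The genes that identify classical monocytes did not move together. Of 16 tested, 4 rose and 4 fell against saline (list median 0.03), and 3 rose and 3 fell against free R848 (list median −0.19). *Vcan* was at 605, 272 and 572 CPM after saline, 511, 266 and 374 CPM after free R848 and 24.1 and 63.0 CPM after medium R848-BPD, with no overlap. It fell by 3.70 against saline (SE 0.55, adjusted p = 0.00103) and by 3.35 against free R848 (SE 0.55, adjusted p = 0.00546). These calls ended without medium R848-BPD replicate 1 (adjusted p = 0.115 and 0.247).

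*Fn1*, the matrix protein fibronectin, was at 1445, 916 and 1102 CPM after saline, 675, 423 and 360 CPM after free R848 and 90.3 and 126 CPM after medium R848-BPD. It fell by 3.48 against saline (SE 0.39, adjusted p = 7.7e-05) and by 2.23 against free R848 (SE 0.39, adjusted p = 0.00776). The second call ended without either medium R848-BPD tumor (adjusted p = 0.247 and 0.0706). *Ccr2* was at 756, 855 and 692 CPM after saline, 675, 689 and 620 CPM after free R848 and 307 and 202 CPM after medium R848-BPD, a fall by 1.54 and 1.33 (SE 0.26 and 0.26, adjusted p = 0.00323 and 0.0153). The adjusted p were 0.081 and 0.229 without medium R848-BPD replicate 2, and the second was 0.118 without replicate 1 and 0.0566 without free R848 replicate 1.

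Against saline *Thbs1* of the same list fell as well, by 1.38 (edgeR adjusted p = 0.0142), a call lost in 3 of the 8 fits with a tumor left out. The other genes of the list were higher or showed no call. The integrin *Itgam* rose from 969 to 1302 CPM after free R848 to 2510 and 2456 CPM after medium R848-BPD (1.17 ± 0.22, adjusted p = 0.0102), and *F13a1* from 338 to 487 CPM to 903 and 1436 CPM (1.52 ± 0.27, adjusted p = 0.00888). With medium R848-BPD replicate 2 left out these adjusted p were 0.097 and 0.173, and that of *Itgam* was 0.227 without replicate 1 and 0.0584 without free R848 replicate 1. *Chi3l3* (765 and 289.7 CPM after medium R848-BPD) gave a log2 fold change of −0.14 against saline, with an adjusted p of 0.906. Of 22 genes of trafficking and adhesion, 5 rose against saline (*Itgam*, *Fpr1*, *Fpr2*, the complement receptor *C3ar1* and the adhesion molecule *Pecam1*) and 2 fell (*Ccr2* and the integrin *Itga4*). The calls of *Itgam*, *C3ar1*, *Pecam1* and *Itga4* against saline ended without either medium R848-BPD tumor (adjusted p between 0.0517 and 0.569), those of *C3ar1* and *Pecam1* without saline replicate 1 (0.133 and 0.154), and that of *C3ar1* without saline replicate 2 (0.0508). Against free R848 3 rose and 1 fell. Of 27 myeloid transcription factors, *Maf* rose and *Nr4a1*, *Nr4a2* and *Bhlhe40* fell against saline, and none was called against free R848. *Maf* lost the call without medium R848-BPD replicate 1 (adjusted p = 0.44) and without neutrophil-gene cells (0.0593), *Nr4a2* without medium R848-BPD replicate 2 (0.164) and *Bhlhe40* without either of these tumors (0.116 and 0.226). Without saline replicate 1 all 3 lost it (0.0762, 0.0636 and 0.0713).

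Among genes of patrolling monocytes, the Ly6c2-low branch, 1 of 13 was higher and 3 were lower against saline, beside 1.97% and 1.79% of all genes tested. *Ace*, which encodes angiotensin-converting enzyme, was at 49.6, 77.7 and 75.3 CPM after saline and 114, 98.9 and 173 CPM after free R848, and no UMI was counted after medium R848-BPD. Measured against 3 UMIs over the 2 tumors, it was at least 4.73-fold lower than after saline and at least 10.6-fold lower than after free R848 (adjusted p = 0.00889 and 0.00244). The adjusted p were 0.22 and 0.154 without medium R848-BPD replicate 1, and the first was 0.0672 without replicate 2. The nuclear receptor *Nr4a1*, required for patrolling monocytes, fell by 1.54 against saline (SE 0.34, adjusted p = 0.0162), and this call ended without either medium R848-BPD tumor (0.343 and 0.0579) and without saline replicate 1 (0.0699).

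Among macrophage genes 5 of 19 rose against saline, among them *Ctsd*, *Lgmn*, *Pf4* and *Stab1*, and *Csf1r* fell, with a list median of 0.87. The calls of these 5 named genes ended without either medium R848-BPD tumor (adjusted p between 0.107 and 0.378) and without saline replicate 1 (between 0.0684 and 0.152), and that of *Csf1r* without 4 further tumors (between 0.0502 and 0.0798) and without neutrophil-gene cells (0.0909). Against free R848 2 rose and none fell (median 0.46). The nuclear oxysterol receptor *Nr1h3*, a regulator of lipid genes in macrophages, was the only call of free R848 beside *Saa3* and *Lcn2*. It was at 10.9, 16.7 and 12.04 CPM after saline, 77.6, 76.9 and 41.9 CPM after free R848 and 157 and 189 CPM after medium R848-BPD, with no overlap between groups. It rose by 2.42 ± 0.37 after free R848 (adjusted p = 0.0171, but 0.333 without saline replicate 1, 0.0935 without free R848 replicate 1 and 0.0684 without free R848 replicate 2) and by 3.77 ± 0.42 after medium R848-BPD (adjusted p = 7.72e-05).

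Of inflammatory cytokines 2 of 15 fell against saline and none rose. Oncostatin M, *Osm*, was at 712, 466 and 831 CPM after saline, 456, 470 and 413 CPM after free R848 and 72.2 and 164 CPM after medium R848-BPD. It fell by 2.66 and 2.06 (SE 0.37 and 0.37, adjusted p = 0.000668 and 0.009), and both calls ended without medium R848-BPD replicate 1 (0.0731 and 0.321). The angiogenic factor *Vegfa* fell by 1.40 against saline (SE 0.26, adjusted p = 0.00549), a call lost without either medium R848-BPD tumor (adjusted p = 0.129 and 0.0756). *Il1b*, at 3313 to 4064 CPM after medium R848-BPD and 4558 to 9362 CPM after saline, gave −0.89 ± 0.27 (adjusted p = 0.0998).

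Chemokines divided. *Cxcl10*, an interferon-induced attractant of T cells, was at 1880, 1194 and 1939 CPM after saline, 1233, 816 and 1081 CPM after free R848 and 277 and 365 CPM after medium R848-BPD. It fell by 2.41 against saline (SE 0.31, adjusted p = 0.000312) and by 1.73 against free R848 (SE 0.31, adjusted p = 0.00859). The second adjusted p was 0.239 and 0.0765 without medium R848-BPD replicates 1 and 2 in turn. The monocyte attractant *Ccl12* rose by 1.77 ± 0.44 and 2.10 ± 0.45 (adjusted p = 0.0357 and 0.0247) and the neutrophil attractant *Cxcl3* by 2.996 ± 0.65 and 3.16 ± 0.66 (adjusted p = 0.0155 and 0.0212). Both lost their calls without medium R848-BPD replicate 2, with adjusted p of 0.469 and 0.425 for *Ccl12* and 0.301 and 0.4 for *Cxcl3*, and *Ccl12* also without neutrophil-gene cells (0.0623 and 0.0643). Their calls against free R848 ended as well without free R848 replicate 1 or 2 (0.0892 and 0.0569 for *Ccl12*, 0.101 and 0.0674 for *Cxcl3*), that of *Cxcl3* without medium R848-BPD replicate 1 (0.058), and the call of *Ccl12* against saline without saline replicate 2 or 3 (0.0607 and 0.0583). In all 4 of 17 chemokine genes rose and 1 fell against saline.

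R848 acts through toll-like receptors, and the counts of called genes of that pathway lay near the 3.77% of all genes tested that were called against saline. Of 31 tested signalling genes 1 fell against saline, *Tlr2*, by 1.53 (SE 0.30, adjusted p = 0.00897), a call lost without either medium R848-BPD tumor (0.126 and 0.151). Of 21 brakes on the pathway 1 rose, *Irak3*, which encodes the inactive kinase IRAK-M. *Irak3* was at 33.3 to 81.3 CPM after saline, 52.2 to 60.8 CPM after free R848 and 271 and 202 CPM after medium R848-BPD (2.03 ± 0.33 and 2.11 ± 0.33, adjusted p = 0.00225 and 0.00307). Leaving out medium R848-BPD replicate 1 ended both calls (0.147 and 0.227).

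Calls among type I interferon-stimulated genes are set beside the 1.97% of all genes tested that rose against saline and the 1.79% that fell. None of 42 rose, and 2 fell against saline, *Parp14* (by 1.08, SE 0.28, adjusted p = 0.0445) and *Ifi205* (by 1.52, SE 0.38, adjusted p = 0.0357), both lost without 5 of the 8 tumors in turn, namely free R848 replicate 1, saline replicates 1 and 3 and both medium R848-BPD tumors (adjusted p between 0.0553 and 0.316). The list median was −0.26 against saline and −0.30 against free R848. Of MHC class I presentation genes 5 of 22 rose against saline, among them *H2-Q6* (2.10 ± 0.30, adjusted p = 0.000676) and *H2-Q7* (1.41 ± 0.26, adjusted p = 0.00549), nonclassical genes with near-identical copies between which reads can be split. Leaving out medium R848-BPD replicate 1 moved their adjusted p to 0.0916 and 0.173, and it also ended the calls of *H2-K1*, *H2-Q4* and *H2-M3* (0.241, 0.188 and 0.162). Against free R848 none of the 22 was called, with a list median of −0.10. Of 6 MHC class II genes, *Cd74* fell by 1.501 (SE 0.39, adjusted p = 0.0433), a call lost without saline replicate 2, free R848 replicate 1 or either medium R848-BPD tumor (adjusted p between 0.0694 and 0.365) and without neutrophil-gene cells (0.105).

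None of 17 cell cycle genes was called, although their median was −1.57 against saline and −1.49 against free R848. Of 22 hypoxia and glycolysis genes 1, *Pfkp*, fell against saline, a call lost without either medium R848-BPD tumor (adjusted p = 0.268 and 0.258), without saline replicate 1 or 3 (0.136 and 0.07) and without neutrophil-gene cells (0.0792). Of 8 ribosomal genes read as a sign of RNA quality 1, *Rplp0*, fell (by 1.57 and 1.73, SE 0.29 and 0.29, adjusted p = 0.00623 and 0.00583, and 0.162 and 0.208 without medium R848-BPD replicate 1, 0.0733 and 0.0737 without replicate 2), with list medians of −0.46 and −0.45. The median mitochondrial share of gated monocytes was 3.39% and 3.16% in the medium R848-BPD tumors and 4.35% to 6.24% in the others. The part of RNA quality in the changes above was not tested.

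**Figure D4:**
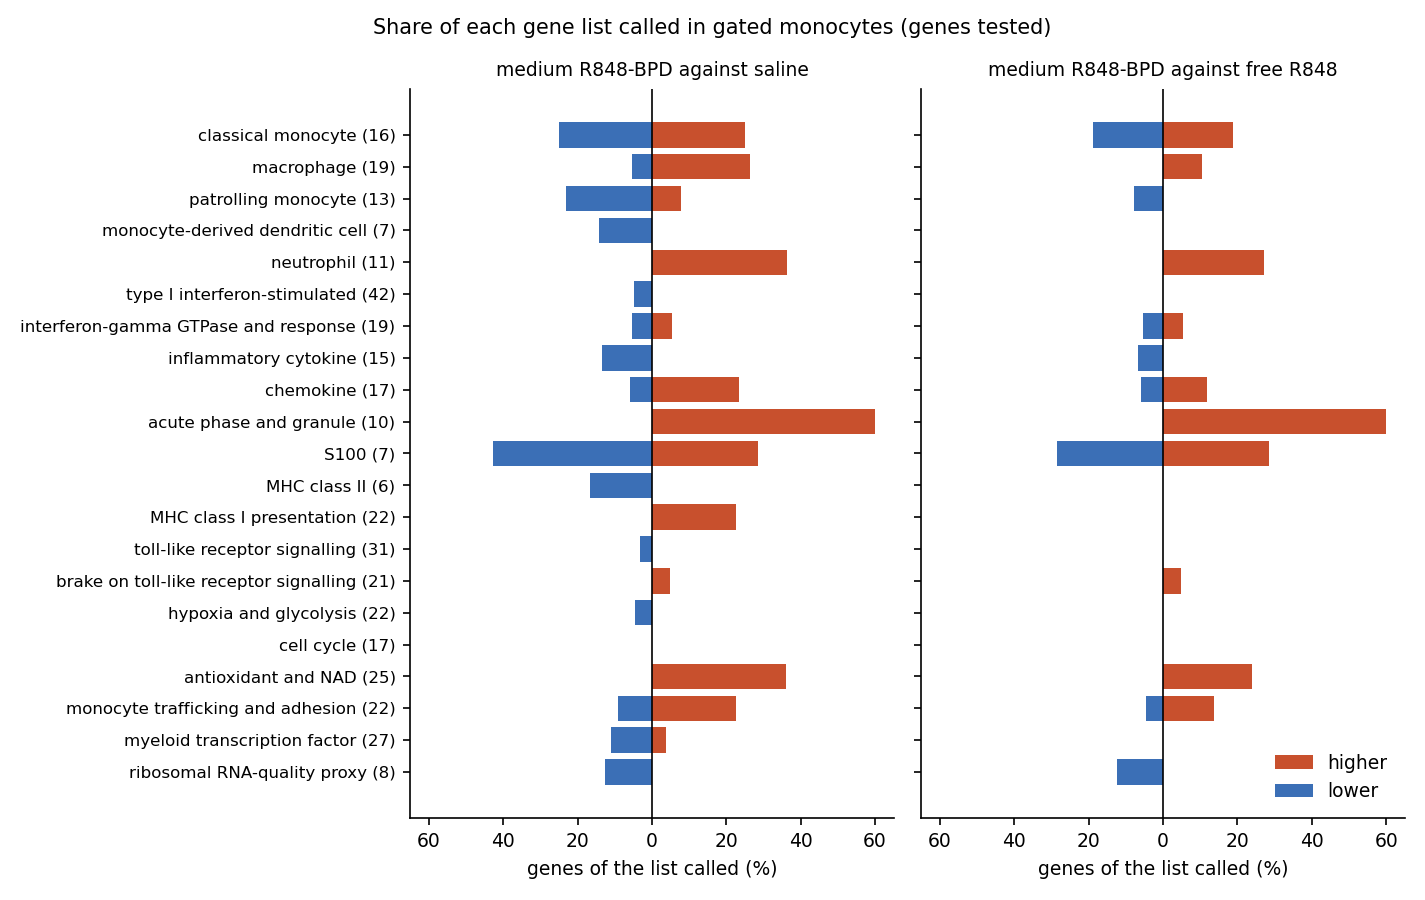
Bars give the percentage of tested genes of each list called higher (right of 0) and lower (left of 0) in gated monocytes after medium R848-BPD, against saline in the left panel and against free R848 in the right, with the number tested in parentheses. The acute-phase and granule list has 60% of its 10 genes higher in both panels, beside 1.97% and 1.03% of all genes.

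Changes in gated monocytes and in macrophages of the same tumors were compared directly in 1 edgeR fit that tested whether a treatment changed a gene by a different amount in each class and took the tumor as a blocking factor. Of 9520 genes tested, 0 differed between the classes for free R848 against saline (0.0%, with 440 at an unadjusted p below 0.05, and 0 with another scaling of edgeR, RLE). For medium R848-BPD, 60 differed against saline (0.63%) and 18 against free R848 (0.189%). Of the 60, the change was the higher in gated monocytes in 14 and the lower in 46. With RLE scaling it was the higher in 17 of 55. With a tumor left out the counts ran from 13 (without medium R848-BPD replicate 2) to 130 (without saline replicate 2) against saline, and from 5 (without the same medium R848-BPD tumor or free R848 replicate 1) to 38 (without saline replicate 3) against free R848. Saline replicate 1 left out gave 29 against saline, and free R848 replicate 3 gave 7 against free R848. The median difference over all genes was −0.18 in both comparisons and −0.11 and −0.10 with RLE scaling, so smaller differences depend on the scaling.

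*Vcan* differed most. It fell in gated monocytes, while in macrophages its log2 fold change was 1.25 against saline and 0.97 against free R848, a difference of −4.82 ± 0.48 and −4.29 ± 0.49 (edgeR adjusted p = 4.97e-06 and 5.82e-05). Its level in the 2 classes was then similar, at 24.1 and 58.9 CPM in gated monocytes and 26.8 to 62.1 CPM in macrophages of the medium R848-BPD tumors. The matrix protein *Thbs1* changed by −1.38 in gated monocytes and 0.82 in macrophages against saline (difference −2.31 ± 0.29, adjusted p = 0.000139). *Il1r2* went the other way, by 0.32 and −1.73 (difference 1.98 ± 0.28, adjusted p = 0.000565). These differences were called whichever tumor was left out.

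For the type I interferon-stimulated list, medium R848-BPD against saline, the median was −0.26 in gated monocytes and 0.65 in macrophages. The difference was below 0 for 40 of 42 genes, with a median of −0.92 beside −0.18 for all genes. With RLE scaling it was below 0 for 39, with a median of −0.84. For free R848 against saline the difference was also below 0 for 37 of the 42, with a median of −0.31 beside −0.007 for all genes, and none was called. For medium R848-BPD against saline the difference itself was called for 7 of the 42, beside 0.63% of all genes. Each was lower in gated monocytes (*Ifit2*, *Rsad2*, *Mx1*, *Cmpk2*, *Parp14*, *Slfn5* and *Isg20*). None of the 7 was called without medium R848-BPD replicate 2 (adjusted p between 0.0684 and 0.558). Without saline replicate 1 *Ifit2*, *Parp14*, *Slfn5* and *Isg20* also lost the call (between 0.0519 and 0.112), and without saline replicate 3 *Parp14* and *Isg20* (0.0793 and 0.0745). Against free R848 1 of 42 was called, *Rsad2*, and not without that tumor or any 1 of the free R848 tumors (between 0.0581 and 0.512). *Cxcl10* also differed against saline (−1.60, adjusted p = 0.0172, but 0.385 without the same medium R848-BPD tumor and 0.0613 without saline replicate 1).

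Some of the genes that rose strongly in gated monocytes rose in the macrophages too. *Saa3* rose by 8.63 in macrophages against saline, *Cd38* by 4.803, *Mmp8* by 4.72 and *Nos2* by 3.90 (edgeR adjusted p = 0.00325, 0.0013, 0.000687 and 0.00953). For *Saa3*, *Lcn2*, *Cd38*, *Mmp8*, *Nos2* and *S100a4* the difference between the classes was not called, which does not show that the classes changed alike.

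**Figure D5:**
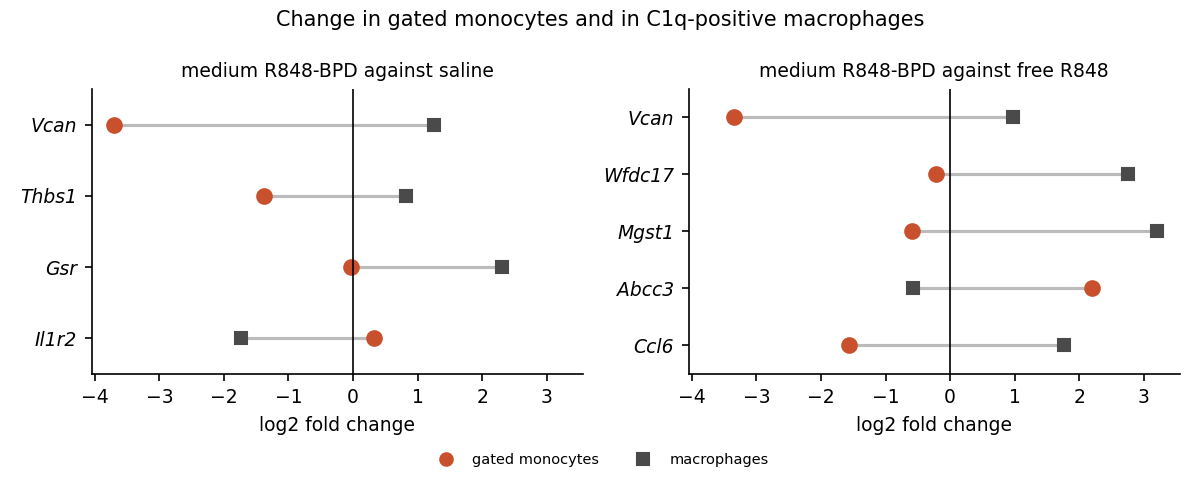
For genes among the 5 with the smallest adjusted p of the test between classes, circles give the log2 fold change in gated monocytes and squares that in C1q-positive macrophages, for medium R848-BPD against saline (left) and against free R848 (right). *Vcan* lies at −3.70 and 1.25 on the left and at −3.35 and 0.97 on the right.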

How the data were processed

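Reads were aligned to mm10 (GRCm38) per the submitters' processing notes. What the authors deposited for each of 8 tumors is a table of raw UMI counts, genes by cell barcodes, not normalized. The aligner and annotation are not given in the sources used here. The members, gene lists and comparisons were chosen with earlier results of these data known. Cells had over 400 and under 10000 genes, under 50000 UMIs and at most 15% mitochondrial UMIs. Scrublet (expected rate 0.05) scored doublets.

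The exact permutation tests of shares were two-sided, with tumors as units. Counts were summed per tumor and class and tested with edgeR 4.0.16 (R 4.3.3) by the quasi-likelihood F test, with TMM scaling, filterByExpr and Benjamini-Hochberg adjustment. The spread was estimated over all 3 groups, and genes with an adjusted p below 0.05 were called. A standard error was taken as the fold change (log2) divided by the root of F. In simulated counts for medium R848-BPD against free R848, 11.9%, 62.7% and 84.8% of genes changed by 1, 2 and 3 on the log2 scale were recovered, with 7 false calls. Against saline the shares were 31.3%, 83.6% and 93.9% for free R848, with 12 false calls. For medium R848-BPD they were 16.4%, 59.7% and 83.3%, with 4. Folds against 0 UMIs use a floor of 3 counts over the group. Limits for shares of 0 use 3 counts per tumor.

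Named genes were the gate and label genes, up to 4 called genes per list (otherwise the 2 highest), the 10 largest rises and falls without overlap at a mean log2 CPM of 4 or more, the 10 genes furthest above and below macrophages, and 5 per class comparison. Any further gene was picked with its values known. The alternatives tried were RLE scaling, DESeq2 1.42.0, no filter, 2 groups only, a replicate block, other limits, and each tumor left out. Leaving out neutrophil-gene cells or shared barcodes was added after seeing the data. Some genes that these rules choose are not reported here.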

Additional observations from a re-analysis of the deposited data

Results flagged for a closer look

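These genes changed by a different amount in gated monocytes and in C1q-positive macrophages, by a test of the difference itself (edgeR quasi-likelihood, Benjamini-Hochberg adjustment over 9520 genes, log2 scale). They are among the 5 with the smallest adjusted p in each comparison.

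For medium R848-BPD against saline, the difference was −4.82 for *Vcan*, −2.31 for *Thbs1*, −2.35 for *Gsr* and 1.98 for *Il1r2*. *Gsr*, the glutathione reductase, was at 217 to 283 CPM in gated monocytes and 23.9 to 30.0 CPM in macrophages after saline, and at 177 to 283 CPM and 115 to 161 CPM after medium R848-BPD (adjusted p = 0.00028).

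For medium R848-BPD against free R848, it was −4.29 for *Vcan*, −2.86 for *Wfdc17*, −3.59 for *Mgst1*, 2.73 for *Abcc3* and −2.97 for *Ccl6*. *Wfdc17* changed by −0.21 in gated monocytes and 2.76 in macrophages (adjusted p = 0.000398), and the microsomal glutathione transferase *Mgst1* by −0.59 and 3.21 (adjusted p = 0.000398). The transporter *Abcc3* changed by 2.19 and −0.57 (adjusted p = 0.00735) and the chemokine *Ccl6* by −1.57 and 1.76 (adjusted p = 0.00763). The calls of *Mgst1* and *Ccl6* ended without medium R848-BPD replicate 2, where the differences were −2.88 and −1.56, and that of *Abcc3* without replicate 1, at 2.38.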

How the results depend on the processing

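The share of gated monocytes was lower after medium R848-BPD than in either other group under each alternative run, from −11.1 to −3.63 percentage points against saline and −13.4 to −4.77 against free R848. The difference between free R848 and saline changed sign, to 0.867 with cells thinned to 2000 UMIs, 2.33 over *Lyz2*-positive myeloid cells and 0.686 at 5 *Ly6c2* UMIs, and ranged from −3.06 (without saline replicate 2) to 2.42 (without saline replicate 1) with a tumor left out.

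Calls for free R848 against saline (3) were 13 with no C1q UMI allowed, 18 at 5 *Ly6c2* UMIs, 16 with DESeq2, 61 with no filter on low counts, 1 with only the 2 groups and 1 to 11 with a tumor left out. For medium R848-BPD against saline (231) there were 389 with no filter and 47 to 256 with a tumor left out, and against free R848 (95) 269 with no filter, 145 with only the 2 groups and 15 to 122 with a tumor left out. Calls of a different change in the classes went from 0 to 33, 60 to 160 and 18 to 100 with no filter, and to 2 for free R848 with macrophages of at least 3 C1q UMIs. With a tumor left out they ranged over 0 to 17, 13 to 130 and 5 to 38. The cause of these shifts was not tested.

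Replicates share a number in the labels but not an animal, so the tumors were not taken as paired. Correlations of their deviations from the group mean ran from −0.023 to 0.385 for same-numbered tumors and from −0.328 to 0.165 for the others. The highest values, 0.385 and 0.216, were between same-numbered free R848 and saline tumors. Whether same-numbered tumors share a batch was not tested. With a replicate block the calls were 34, 395 and 268. The sums of 17 and 30 cells in the medium R848-BPD tumors limit what could be called there, and a tumor left out of them leaves 1 that is assumed to vary like the other groups.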
